A study of Homo sapiens with 3 samples.

Results

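A set of 74 genes, of 15512 rows in the deposited count table, had far more reads in 22Rv1 cells given MLPH transcript V1 than in cells given transcript V4. Members were chosen by their V1 and V4 counts, less a list of symbols. A gene was taken when its CPM, its count scaled to a column total of 1000000, was at least 2 in the V1 library and when the V1 CPM plus 0.2, divided by the V4 CPM plus 0.2, was at least 5. These 2 thresholds were passed by 99 genes, and 25 of them were left out by symbol (collagens, integrins, metalloproteinases, RAB and solute carrier genes, and some inflammatory and epithelial genes such as LCN2, IL8 and KRT7). Membership was thus fixed by the V1 and V4 counts, so those counts are given below as a description and none of them was tested. Among the genes with a V1 CPM of at least 2, 1.27% passed both thresholds. In the other direction, 5 genes (0.066%) with a V4 CPM of at least 2 were at least 5-fold higher in the V4 library.

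Cells of 22Rv1, an established line from a human prostate carcinoma, were given 20 μg of plasmid with MLPH transcript V1 or V4 for 48 h, and a further sample received the empty vector and is given no separate dose in the labels. All groups share the 22Rv1 background, and poly(A) RNA was sequenced. Each of the 3 groups had 1 sample, and only the V1 and V4 libraries (total counts 9253399 and 9609381) could be tied to a column of the table by name. Comparisons with the empty vector were not made. With 1 library per group there is no replicate check, no test across samples was possible, and each ratio describes a pair of libraries and not the transfections. Intervals are 95% bounds from the exact binomial method of Clopper and Pearson, conditional on the summed count. They cover counting error only and not the spread between cultures. MLPH itself had 7219 counts with V1 and 7773 with V4, and gene-level counts do not separate its transcripts, so it checks neither label.

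MLPH encodes melanophilin, an adaptor between the GTPase Rab27a and myosin Va in organelle transport. The members include genes of several processes of epithelial tumour cells: aldehyde and xenobiotic metabolism, control of insulin-like growth factors (IGFs), collagen handling, complement, and cytokine signalling. NF-kappaB and AP-1 are transcription factors known to act on several such genes, among them IL6 and the chemokines of the CXCL family. Roles given for each gene below are background knowledge and not results.

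Members were low-count genes in both libraries. Counts in the V1 library ran from 19 to 457 with a median of 44.5, against a median of 215 over the 7768 genes with a V1 CPM of at least 2. Only 16 members reached 100 counts, 18 had 50 to 99, and 40 had fewer than 50. In the V4 library 23 members had 0 counts, 26 had 1 to 3, 12 had 4 to 9 and 13 had 10 or more. A V4 count of 0 allows a level of up to 0.312 CPM by counting error. Of the 7768 genes, 27 (0.348%) had 0 counts in the V4 library. With a V1 CPM of at least 2, a gene at 0 V4 counts always passes the ratio threshold. The share at 0 among members thus restates the rule, and nothing is read from it. Together the members held 5726 V1 counts and 401 V4 counts, which is 0.0619% and 0.00417% of each library. The 10 members with most V1 counts held 44.5% of the set's V1 counts.

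**Figure D1:**
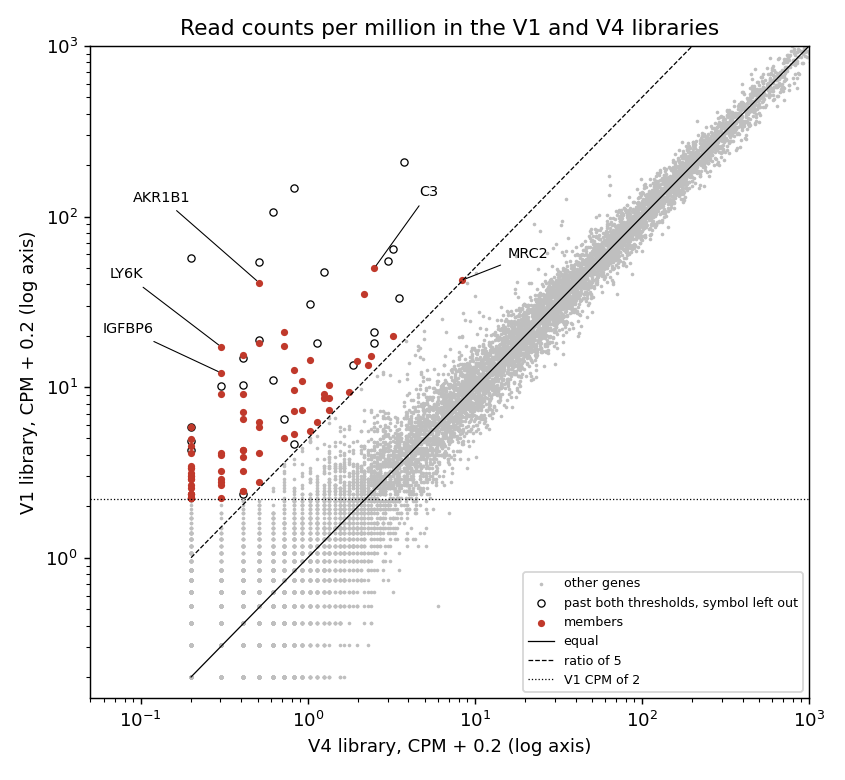
CPM plus 0.2 of each gene in the V4 library (x, log axis) and the V1 library (y, log axis), with members in red, genes past both thresholds but left out by symbol as open circles, and other genes in grey. Both axes end at 1000, and the members lie above the dashed line of a ratio of 5, from MRC2 close to it to AKR1B1 far above.

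Levels between genes were compared per kilobase of the longest GENCODE v29 transcript, which was found for 72 members. The median V1 level of the members was 1.68 CPM per kilobase, against 7.45 over genes with a V1 CPM of at least 2, and 7 members lay above that median. On this scale AKR1B1 had the highest V1 level of the set at 21.1 CPM per kilobase, followed by the surface gene TM4SF1 at 11.2, IGFBP6 at 10.1 and the complement gene C3 at 9.38. Transcript length itself was similar, with a median of 3118 bases for members and 3356 for genes with a V1 CPM of at least 2.

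Ratios varied within the set. The ratio of V1 over V4 with 0.2 CPM added ran from 5.04 to 79.7, with a median of 11.5. Over the 8832 genes whose mean CPM reached 1 (called kept below), the median was 1.03 and 95% of genes lay between 0.518 and 2.71. The lower bound of the interval was at least 5 for 40 members and below 5 for 34, and its lowest value was 2.52, for OAF. At the low end MRC2 had an interval of 4.03 to 6.63, and 27 members had an interval that lay wholly above it. Just inside the ratio threshold were MRC2 (5.04), NSUN7 (5.32) and WDR66 (5.33), and just outside were STC1 (4.93), LYPD3 (4.90) and LOC102723726 (4.89). At the CPM threshold, 7 members had 19 V1 counts (2.05 CPM), while FAM110C, LOC102723434, PLLP and SOX17 had 18 (1.95 CPM) and were outside.

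**Figure D2:**
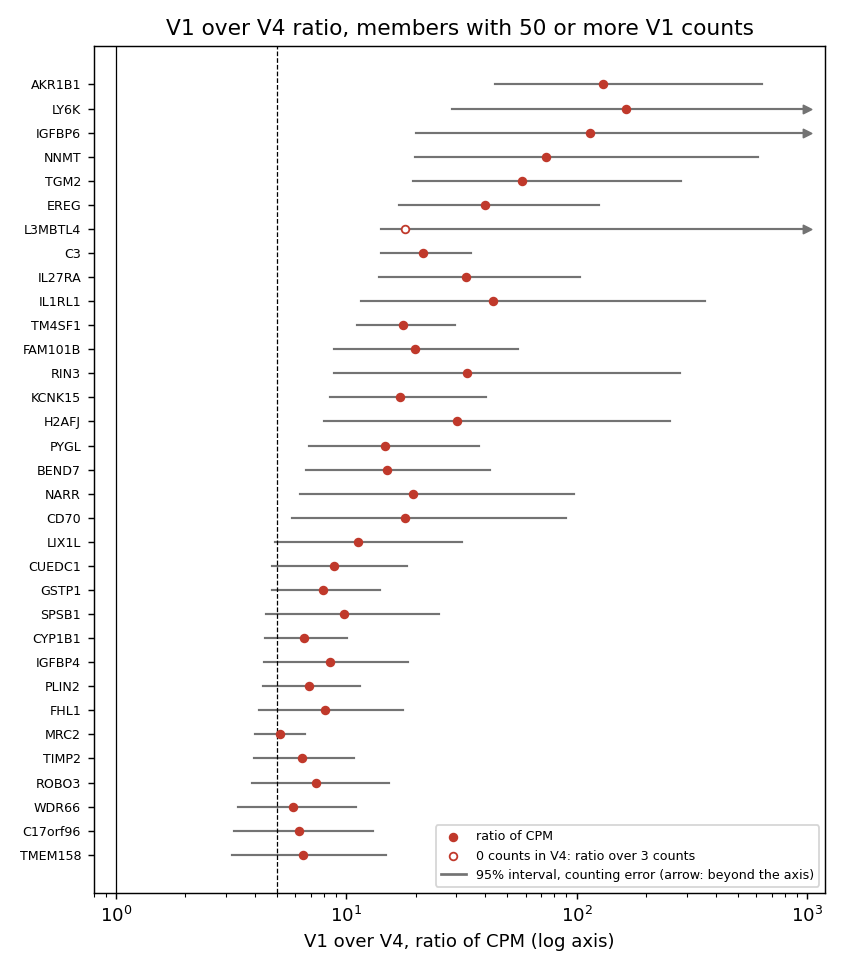
Ratio of V1 CPM over V4 CPM (x, log axis, no added constant) for 33 members with 50 or more V1 counts, ordered by the lower bound of the 95% interval of counting error (lines). Open points mark a gene at 0 V4 counts, drawn against 3 counts, and the intervals of AKR1B1 (44.2 to 634) and MRC2 (4.03 to 6.63) do not overlap.

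The 5 genes named with the set, AKR1B1, NNMT, TGM2, LY6K and IGFBP6, summed to 951 counts with V1 and 10 with V4. They held the first 5 places by the lower bound of the interval. Each of them had 110 or more counts with V1 and 3 or fewer with V4.

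The 12 members of metabolism and detoxification summed to 1204 V1 counts and 81 V4 counts (ratio 15.4, interval 12.3 to 19.6). AKR1B1, aldose reductase, which reduces glucose and lipid aldehydes, had 376 counts with V1 and 3 with V4, 130.2-fold by CPM (interval 44.2–634). NNMT, which methylates nicotinamide, had 141 against 2, 73.2-fold by CPM (interval 19.9–610.4). Both were close to absent from the V4 library. CYP1B1, a cytochrome P450 of oestrogen and xenobiotic metabolism, had 183 counts against 29, 6.55-fold by CPM (interval 4.41–10.1). GSTP1, a glutathione transferase often silenced by promoter methylation in prostate cancer, had 129 against 17, 7.88-fold by CPM (interval 4.73–13.9). PLIN2, a lipid droplet coat protein, had 139 against 21, a ratio of 6.87. These 3 genes were thus clearly counted in both libraries, unlike AKR1B1 and NNMT. PYGL, a glycogen phosphorylase, had 99 counts against 7, 14.7-fold by CPM (interval 6.87–37.5), and GATM, an enzyme of creatine synthesis, had 36 against 1. The other 5 were near the lower threshold. GALNT14, which starts O-linked glycans, had 25 counts against 0, and the efflux pump gene ABCC3, the vacuolar ATPase subunit gene ATP6V0D2 and the inositol trisphosphate kinase gene ITPKA had 19 against 0 each. SGPP2, a sphingosine phosphate phosphatase, had 19 against 1.

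Several relatives of these enzymes differed less between the libraries than the members named, in either direction. Of 16 kept aldo-keto reductase and detoxification genes, 4 were at least 5-fold higher in the V1 library, all of them members. In the V4 library 0 were, and the shares of all kept genes were 1.14% (V1) and 0.0679% (V4). The list's median log2 ratio was 0.24, against 0.04 over all kept genes. The list holds AKR1B1 and NNMT, and the rule used these counts, so nothing is read from them. AKR1C1, a reductase of steroids, had 501 counts with V1 and 586 with V4. AKR7A2 had 887 against 849, and the retinal dehydrogenase gene ALDH1A1 1489 against 1901 (interval 0.76 to 0.87). On the same list CBR1 had 580 against 337, MGST1 257 against 157 and AKR1C4 33 against 70. The relatives were picked after their values were seen, so the contrast is a description.

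Of the growth factors and IGF-binding proteins, 4 were members, with 406 V1 counts and 18 V4 counts. EREG, epiregulin, a ligand of the epidermal growth factor receptor, had 193 counts with V1 and 5 with V4, 40.1-fold by CPM (interval 16.9–124.9). Its receptor gene EGFR had 444 against 299, and the related ligand gene AREG 3859 against 3092, ratios of 1.54 (interval 1.33 to 1.79) and 1.30 (interval 1.24 to 1.36). EREG was a member by its ratio, and these relatives were picked after their values were seen, so the contrast between them is a description. IGFBP6, which binds IGF-II with preference, had 110 counts against 1, 114-fold by CPM (interval 20.1–4552), and IGFBP4 had 82 against 10, 8.52-fold by CPM (interval 4.40–18.4). Among 7 kept genes of the IGF list, 2, both members by the rule, were at least 5-fold higher with V1 and 0 with V4, beside 1.14% and 0.0679% of all kept genes. The rule used these counts, so nothing is read from them. The abundant binding protein genes IGFBP2 (2202 against 1808 counts) and IGFBP3 (790 against 718) were much closer between the libraries. FGF7, keratinocyte growth factor, typically made by stromal cells, had 21 counts against 2, and its receptor gene FGFR2 had 0 in both libraries.

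Matrix handling and protease inhibition gave 6 members, with 797 V1 counts and 106 V4 counts (ratio 7.81, interval 6.37 to 9.65), the lowest summed ratio of the role groups. MRC2 alone held 391 of these V1 counts and 79 of these V4 counts. The median ratio of the group with 0.2 CPM added was 10.0, above the 8.23 of the members with no stated role. TGM2, tissue transglutaminase, which cross-links proteins of the matrix, had 167 counts with V1 and 3 with V4, 57.8-fold by CPM (interval 19.4–283). The keratinocyte enzyme gene TGM1 had 185 against 214. MRC2, an endocytic collagen receptor, had 391 against 79, 5.14-fold by CPM (interval 4.03–6.63), the highest V4 count of any member. MRC2 was also the gene that fell below the threshold when library sizes were rescaled. TIMP2, an inhibitor of metalloproteinases, had 123 counts against 20, 6.39-fold by CPM (interval 3.96–10.8), while TIMP1 had 2897 against 2670. CD248, endosialin, a glycoprotein of stromal and perivascular cells, had 44 against 0, 15.2-fold by CPM when V4 is taken as 3 counts (interval from 11.9). EMILIN2, an elastic fibre glycoprotein, had 38 against 2, and WFDC2, a secreted protein with protease inhibitor domains, 34 against 2. Of 24 kept matricellular and secreted matrix genes outside the left-out families, 2 were at least 5-fold higher in the V1 library, both members. In the V4 library 0 were, beside 1.14% (V1) and 0.0679% (V4) of all kept genes. The rule used these counts, so nothing is read from them.

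Markers of other cell types were read beside these genes. Of 11 fibroblast markers listed, 7 were matched, and their summed level was 169.7 CPM with V1 and 4.995 CPM with V4. COL1A2 and COL3A1, which passed the thresholds and were left out by symbol, made up most of it, with 976 against 4 and 526 against 0 counts. FBLN1 (15 against 0), FAP (14 against 0) and PDGFRB (6 against 0) were low, LUM had 33 against 44, and THY1 was at 0 in both libraries. Of 7 matched genes typical of basal-like or mesenchymal-like carcinoma lines the summed level was 403 CPM against 297 CPM. LGALS1, the most abundant of them, had 2432 against 2279 counts (263 CPM against 237 CPM), and EGFR had 444 against 299. ANXA1 had 763 against 234 counts, NT5E 39 against 9, CAV1 24 against 5 and CAV2 9 against 0, while CD44 had 22 against 28. The part of such cells in the set's ratios was not tested. In bulk RNA, fewer cells of a type and less RNA per cell cannot be told apart.

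The more abundant markers of the line itself were counted in both libraries. Of 16 listed genes of luminal prostate cancer cells, 13 were matched, and they summed to 2126 CPM with V1 and 2276 CPM with V4. FOXA1 had 5861 against 6205 counts, HOXB13 621 against 536, KRT8 2085 against 1636 and CDH1 6389 against 8211. Other markers were low in both, with KLK2 at 8 against 13, ACPP at 4 against 5, TMPRSS2 at 1 against 2 and SLC45A3 at 1 against 0. Basal epithelial markers were low, at 5.19 and 5.72 CPM over 8 genes, with KRT15 and DSC3 at 0 in both. Within these sums single genes differed in both directions. NGFR had 14 counts against 1, KRT6A 5 against 1 and KRT14 4 against 0, while DST had 16 against 35, KRT5 8 against 15 and DSG3 1 against 3. Leukocyte markers summed to 11.1 and 7.49 CPM over 7 genes, mostly CD68 (86 against 59 counts), and PTPRC and CD3E were at 0 in both. Endothelial markers summed to 2.81 and 4.06 CPM over 4 genes with CDH5 at 0 in both, pigment cell markers to 7.56 and 6.87 CPM over 6 genes, and smooth muscle markers to 0.432 and 0.520 CPM over 3 genes.

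**Figure D3:**
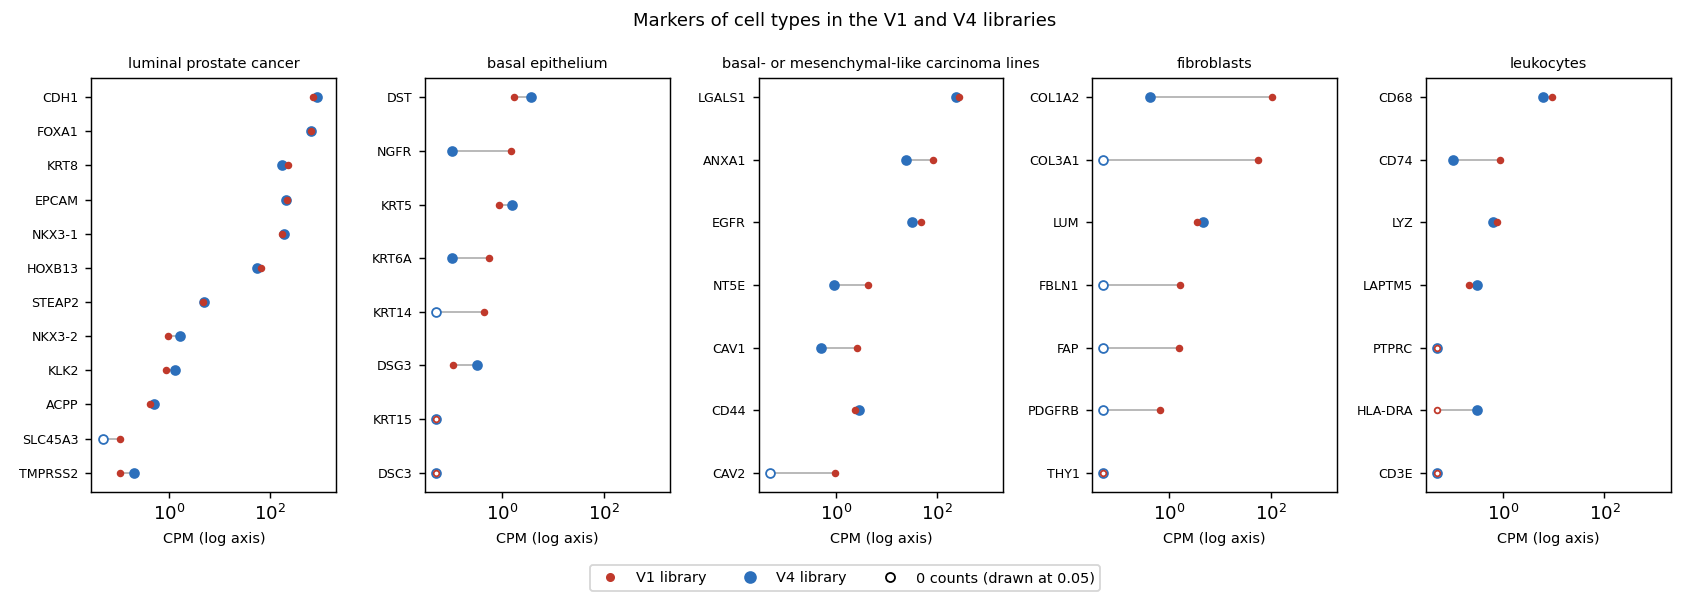
CPM (x, log axis) of markers of 5 cell types in the V1 library (red) and the V4 library (blue), with open points for 0 counts drawn at 0.05. The 6 most abundant luminal prostate cancer genes drawn lie close together. Among them CDH1 has 690 CPM with V1 and 854 CPM with V4, and KRT8 has 225 CPM and 170 CPM. COL1A2 and COL3A1 among the fibroblast markers have 976 and 526 counts with V1 against 4 and 0 with V4.

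Complement, cytokine and innate immunity genes were the largest role group, with 16 members and 1072 V1 counts against 42 V4 counts (ratio 26.5, interval 19.5 to 37.0). C3, the central complement protein, had 457 counts in the V1 library, the most of any member, and 22 in the V4 library, 21.6-fold by CPM (interval 14.1–34.8). Leaving out C3, the remaining 15 members had between 19 and 159 V1 counts and between 0 and 5 V4 counts. C1R, the protease of the first complement component, stood on 2 rows of the table, 30 against 0 and 20 against 7 counts. Only the first row is a member, and its ratio is uncertain for that reason.

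Of the cytokine receptors, IL27RA, a receptor chain for interleukin 27, had 159 counts against 5, 33.0-fold by CPM (interval 13.9–103), and its usual partner gene IL6ST had 50 against 74. IL1RL1, the receptor of interleukin 33, had 83 against 2, 43.1-fold by CPM (interval 11.6–362). TNFRSF1B, a receptor of tumour necrosis factor, had 29 against 0, 10.0-fold by CPM when V4 is taken as 3 counts (interval from 7.66). Other receptor genes on the cytokine list varied. IL15RA had 55 counts against 11 (ratio 4.57 with 0.2 CPM added) and IL22RA1 17 against 2 (ratio 4.99), both below the ratio threshold. IL22RA1, at 1.84 CPM with V1, was below the CPM threshold as well. TNFRSF12A had 5934 against 4387 and TNFRSF1A 3180 against 2888.

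The immune ligands of this group had 19 to 52 V1 counts. CD70, a tumour necrosis factor family ligand, had 52 counts with V1 and 3 with V4, 18-fold by CPM (interval 5.83–90.1). CD274, which encodes the checkpoint ligand PD-L1, had 45 against 5, 9.35-fold by CPM (interval 3.72–30.2). The family member TNFSF12 had 25 against 1, the neutrophil chemokine gene CXCL3 23 against 1, IL32 20 against 0 and IL6 19 against 0. For IL6 the V1 level was 6.58-fold higher when V4 is taken as 3 counts (interval from 4.85), and IL6R, its receptor gene, had 2 counts against 0. CXCL3 is a close copy of CXCL1 (100 against 4 counts) and CXCL2 (92 against 1 counts), which were left out by symbol, and reads shared between them make its value uncertain. Among 29 kept cytokine and receptor genes, 7 were at least 5-fold higher in the V1 library, all of them members, and 0 in the V4 library, beside 1.14% and 0.0679% of all kept genes; the rule used these counts, so nothing is read from them. The median log2 ratio of that list was 0.34.

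Innate effectors completed the group. S100A9, a calcium-binding alarmin of myeloid cells and inflamed epithelium, had 35 counts against 1, and LGALS3, galectin 3, had 22 against 0. APOBEC3C, a cytidine deaminase acting on viral DNA, had 28 against 2, with close copies in its family. UBE2L6, the conjugating enzyme for ISG15, had 26 against 0, and MB21D1, which encodes the DNA sensor cGAS, had 19 against 0. MB21D1, with a longest transcript of 3182 bases, shares 180 exon bases with DDX43 on the opposite strand in GENCODE v29. No source used here gives the strand setting of the counting, so the assignment of reads in these shared bases is uncertain. DDX43 had 7 counts against 0.

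**Figure D4:**
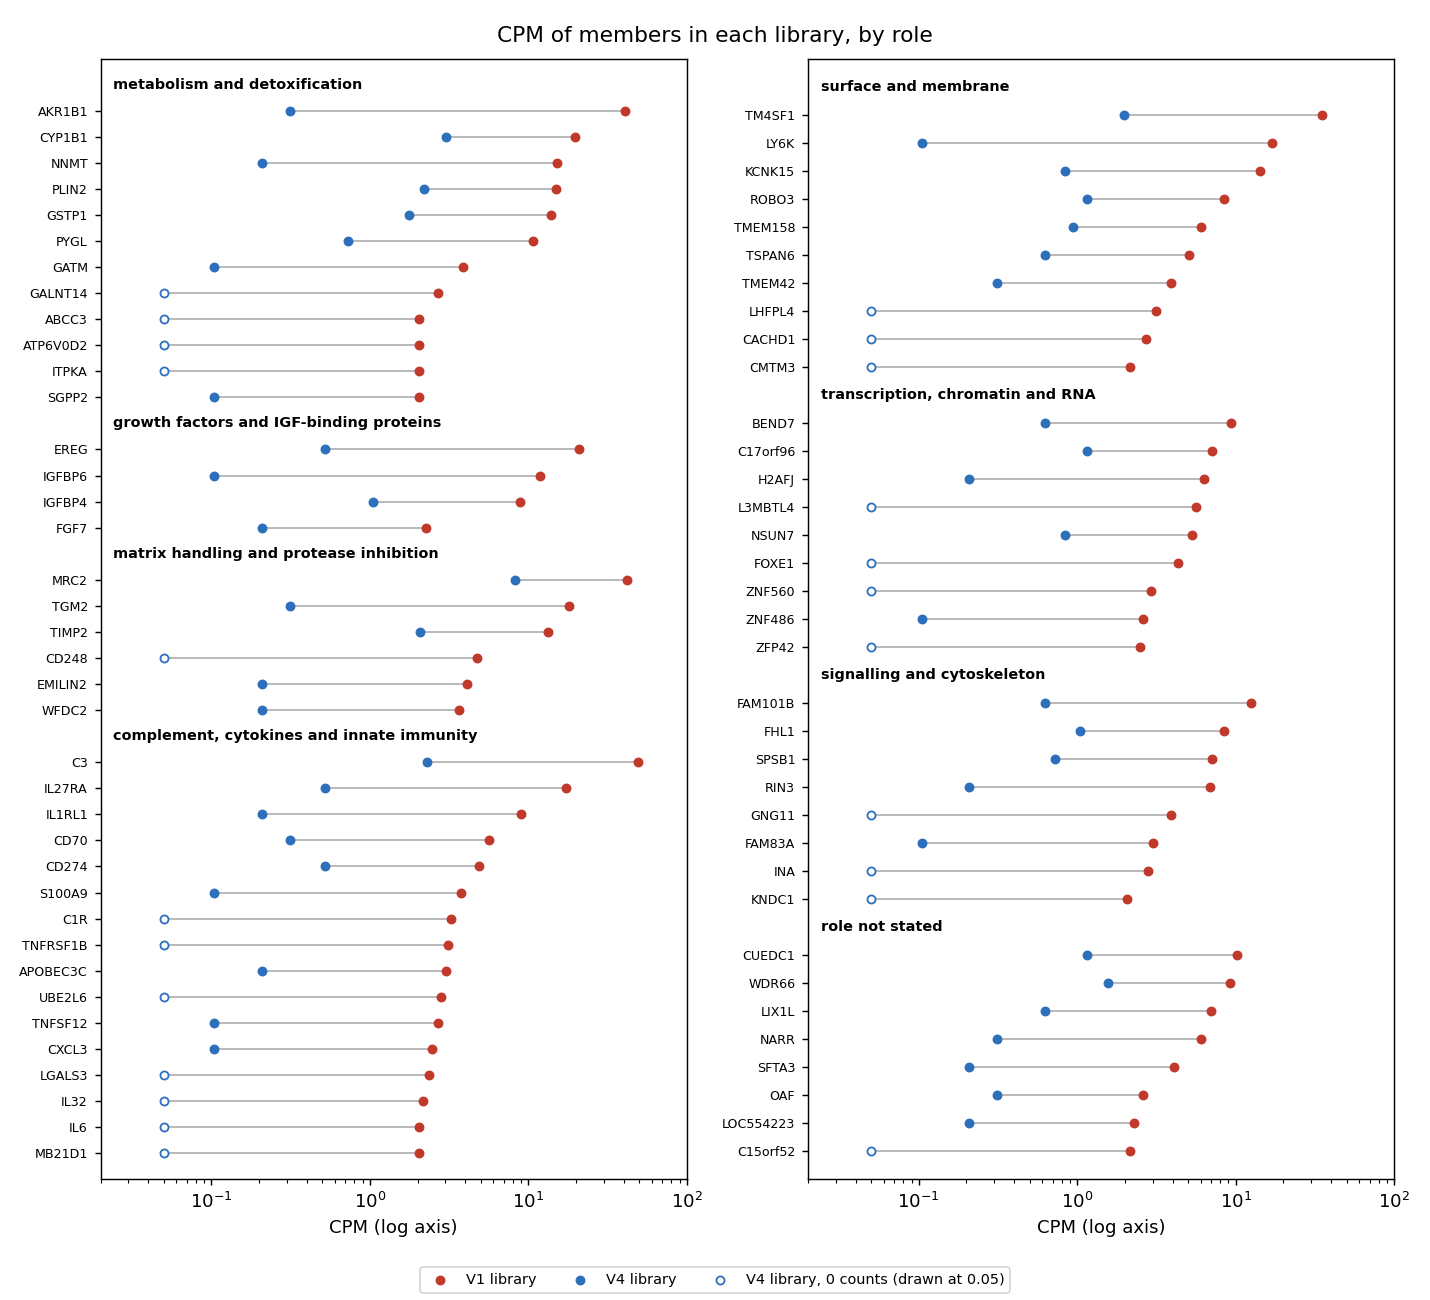
CPM of 73 of the 74 members (x, log axis) in the V1 library (red) and the V4 library (blue), by role and ordered by V1 counts within each role, with open points for 0 V4 counts drawn at 0.05. Blue points of LY6K, IGFBP6 and GATM stand at the level of 1 read, while CYP1B1, PLIN2, TIMP2, MRC2 and C3 keep 20 or more V4 counts.

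Surface and membrane genes gave 11 members with 986 V1 counts and 58 V4 counts (ratio 17.7, interval 13.5 to 23.4). TM4SF1, a tetraspanin-like protein of carcinoma and endothelial cells, had 323 counts against 19, also a ratio of 17.7 (interval 11.1 to 29.7). LY6K, a lipid-anchored antigen of testis and tumours, had 157 against 1, 163-fold by CPM (interval 28.8–6480.2). In its family LYPD3 had 45 against 8 and stood just outside the set, while LY6G6C had 20 against 38. KCNK15, a potassium channel subunit, had 132 against 8, 17.1-fold by CPM (interval 8.45–40.5); it shares 506 exon bases with RIMS4 on the opposite strand, which had 1 count against 0. ROBO3, an axon guidance receptor, had 78 against 11, 7.36-fold by CPM (interval 3.90–15.4). TMEM158 (56 against 9), the tetraspanin gene TSPAN6 (47 against 6), TMEM42 (36 against 3), LHFPL4 (29 against 0), CACHD1 (25 against 0) and CMTM3 (20 against 0) had lower counts.

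Regulators of transcription, chromatin and RNA gave 9 members, with 426 V1 counts and 28 V4 counts, and no member of this group passed 87 V1 counts. L3MBTL4, a chromatin reader of the malignant brain tumour domain family, had 52 counts with V1 and 0 with V4. That is 18-fold by CPM when V4 is taken as 3 counts (interval from 14.1). FOXE1, a forkhead factor of thyroid and other epithelia, had 40 against 0, 13.8-fold by the same floor (interval from 10.7). ZFP42, the stem cell factor REX1, had 23 against 0, and the zinc finger genes ZNF560 and ZNF486 had 27 against 0 and 24 against 1. BEND7 had 87 against 6, the histone variant gene H2AFJ 58 against 2, C17orf96 66 against 11 and the RNA methyltransferase family gene NSUN7 49 against 8. H2AFJ has close copies among the histone genes, so its count is uncertain. The list of transcription factors had 81 matched genes (55 kept) and did not include the members FOXE1 and ZFP42. No member was on it, and 0 of its kept genes were at least 5-fold apart in either direction. Over all kept genes the shares were 1.14% with V1 and 0.0679% with V4, so nothing is read from this count. The median log2 ratio of the list was 0.16, against 0.04 over all kept genes. JUN on that list had 3393 counts against 2946, JUNB 2020 against 1764 and SNAI1 51 against 15.

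Signalling and cytoskeletal genes gave 8 members, with 432 V1 counts and 26 V4 counts (ratio 17.3, interval 11.6 to 26.7). FAM101B, a regulator of filamin and perinuclear actin, had 115 counts against 6, 19.9-fold by CPM (interval 8.87–55.4). FHL1, a LIM domain protein of muscle and other cells, had 78 against 10, 8.10-fold by CPM (interval 4.18–17.6). RIN3, an exchange factor for Rab5 GTPases, had 64 against 2, 33.2-fold by CPM (interval 8.83–280.3), and SPSB1, a substrate receptor of ubiquitin ligases, 66 against 7. The G protein subunit gene GNG11 had 36 against 0, FAM83A 28 against 1, the neuronal intermediate filament gene INA 26 against 0 and KNDC1 19 against 0. Across 21 kept genes of the cytoskeleton and contractile list, 1 was at least 5-fold higher in the V1 library, the member FHL1. In the V4 library 0 were, beside 1.14% (V1) and 0.0679% (V4) of all kept genes. The rule used these counts, so nothing is read from them.

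The other role lists are given by the same count. At least 5-fold higher with V1 were 1 of 10 kept transglutaminase and collagen cross-linking genes (TGM2; median log2 ratio of the list 0.29), 1 of 4 of the Ly6 and uPAR family (LY6K; 1.41), 1 of 13 S100 and annexin genes (S100A9; 0.31), and 1 of 24 growth factor and receptor kinase genes (EREG; 0.03). The same held for 3 of 31 adhesion and surface genes (among them CD248 and TM4SF1; 0.06) and 2 of 40 lipid, nucleotide and one-carbon enzymes (GALNT14 and PYGL; 0.07). None reached it among 9 plasminogen activator and serpin genes (0.82), 24 of the TGF-beta family (0.22), 8 cancer-testis antigens (0.17) and 38 signalling regulators (0.19). No kept gene of these 10 lists was 5-fold higher with V4. Over all kept genes the shares were 1.14% with V1 and 0.0679% with V4. Every gene named here was a member, so these counts restate the rule and support nothing.

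For another 8 members no role is stated. CUEDC1 had 94 counts against 11, WDR66 85 against 15, LIX1L 65 against 6, SFTA3 38 against 2, OAF 24 against 3, LOC554223 21 against 2 and C15orf52 20 against 0. WDR66 shares 436 exon bases on the same strand with PSMD9, a far more abundant gene with 2465 counts against 2149. NARR had 56 counts with V1 and 3 with V4. RefSeq lists that name as a synonym of RAB34, which had 43 against 0, passed both thresholds and was left out by symbol, so the 2 values are not independent. Along the genome, in the order of RefSeq genes found in the table, 0 members stood next to another member. CXCL3 stood next to CXCL2 and NSUN7 next to UCHL1 (1933 against 34 counts), both past the thresholds and left out by symbol.

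Promoter sequence was not used in choosing the members. RefSeq windows on GRCh38.p14 (250 bases before to 50 after a transcript start) were matched for 50 members, 76 windows in all, of which 12 belong to FHL1 alone. These are compared with 8056 windows of genes with a V1 CPM of at least 2 and with all 35116 windows. The median GC content was 63.8% in member windows, 65.0% for genes with a V1 CPM of at least 2 and 58.7% for all windows. Median observed over expected CpG was 0.705, 0.828 and 0.579.

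Motifs were searched on both strands, as letters only, so a match is neither a bound site nor a cause. The NF-kappaB motif was found in 12 of 76 member windows (15.8%, exact binomial interval 8.43% to 26%), 1 window in each of 12 genes, against 6.37% of windows of genes with a V1 CPM of at least 2 and 5.91% of all windows. The 12 genes were CACHD1, CXCL3, FHL1, FOXE1, IGFBP6, IL27RA, IL32, IL6, L3MBTL4, LHFPL4, SGPP2 and TM4SF1. Counted by gene, that is 24% of members with a window, 7.74% of genes with a V1 CPM of at least 2 and 7.09% of all genes. The TATA motif TATAAA was found in 13.2% of member windows, against 6.36% and 11.5%, and the E-box CACCTG bound by SNAI and ZEB repressors in 27.6%, against 18.4% and 20.6%.

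The AP-1 motif TGANTCA was found in 7.89% of member windows, against 5.20% and 7.71%, the TEAD motif CATTCC in 15.8%, against 10.9% and 14%, and the STAT motif TTCNNNGAA in 5.26%, against 6.14% and 7.66%. The GC box GGGCGG was in 59.2%, against 68.2% and 45%, and the CArG box of SRF in 3 windows (3.95%), against 1.07% and 1.29%. In TM4SF1 and IGFBP6 the NF-kappaB match overlaps a TEAD match, so these are not separate sequences. Windows that share a gene are not independent, and no test was made.

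**Figure D5:**
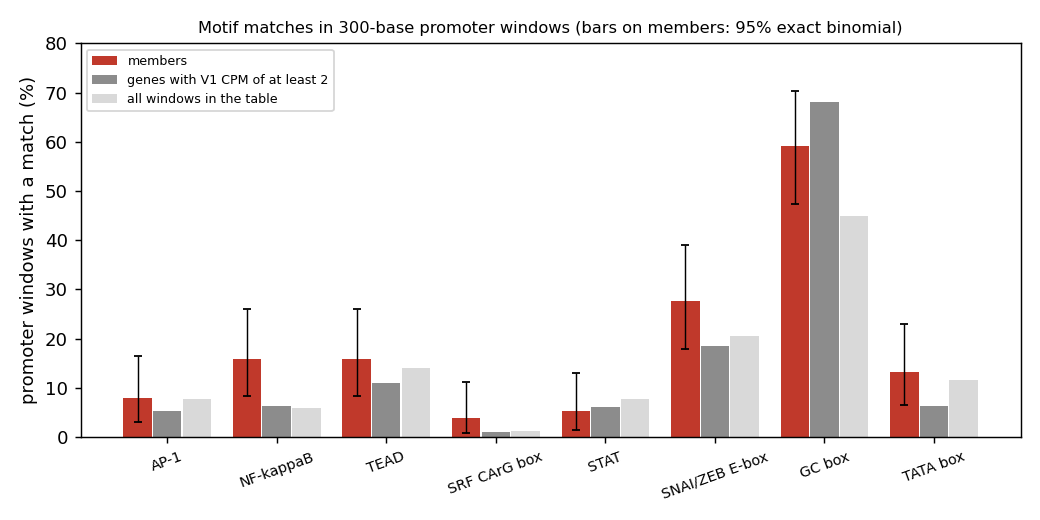
Percent of 300-base promoter windows (y) that hold each motif on either strand, for members (red, with 95% exact binomial intervals), genes with a V1 CPM of at least 2 (dark grey) and all windows (light grey). For NF-kappaB the interval of the members (8.43% to 26%) lies above both grey bars.

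The 250 bases before the start are shown for 8 members, chosen after the search because they carry a match to NF-kappaB (in GSTP1 to AP-1) and cover cytokine, receptor, metabolic, surface and growth factor genes. Capitals mark NF-kappaB matches and, in SGPP2 and GSTP1, AP-1 matches. Each is written 5′ to 3′ on the gene's strand, from RefSeq on GRCh38.p14: IL6 at chr7:22726950-22727199 (plus), CXCL3 at chr4:74038690-74038939 (minus), IL32 at chr16:3065153-3065402 (plus), IL27RA at chr19:14031512-14031761 (plus), SGPP2 at chr2:222423738-222423987 (plus), TM4SF1 at chr3:149377650-149377899 (minus), IGFBP6 at chr12:53097417-53097666 (plus) and GSTP1 at chr11:67583562-67583811 (plus).
IL6: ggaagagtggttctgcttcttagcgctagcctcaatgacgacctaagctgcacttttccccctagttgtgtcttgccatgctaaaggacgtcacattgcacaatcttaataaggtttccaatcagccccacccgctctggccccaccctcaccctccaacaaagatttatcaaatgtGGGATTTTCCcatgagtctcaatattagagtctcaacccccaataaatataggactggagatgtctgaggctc
CXCL3: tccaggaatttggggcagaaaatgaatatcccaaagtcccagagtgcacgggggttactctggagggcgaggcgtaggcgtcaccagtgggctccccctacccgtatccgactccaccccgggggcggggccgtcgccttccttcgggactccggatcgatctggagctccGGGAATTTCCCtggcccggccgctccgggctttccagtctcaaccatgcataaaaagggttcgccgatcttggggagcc
IL32: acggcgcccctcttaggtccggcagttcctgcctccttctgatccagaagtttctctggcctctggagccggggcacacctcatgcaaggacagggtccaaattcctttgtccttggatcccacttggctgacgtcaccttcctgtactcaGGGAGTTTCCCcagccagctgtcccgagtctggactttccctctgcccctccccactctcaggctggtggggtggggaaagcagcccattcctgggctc
IL27RA: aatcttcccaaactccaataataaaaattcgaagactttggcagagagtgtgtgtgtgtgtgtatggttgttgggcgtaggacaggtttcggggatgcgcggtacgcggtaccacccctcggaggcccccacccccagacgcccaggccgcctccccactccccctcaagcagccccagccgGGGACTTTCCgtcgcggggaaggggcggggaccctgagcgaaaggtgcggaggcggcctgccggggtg
SGPP2: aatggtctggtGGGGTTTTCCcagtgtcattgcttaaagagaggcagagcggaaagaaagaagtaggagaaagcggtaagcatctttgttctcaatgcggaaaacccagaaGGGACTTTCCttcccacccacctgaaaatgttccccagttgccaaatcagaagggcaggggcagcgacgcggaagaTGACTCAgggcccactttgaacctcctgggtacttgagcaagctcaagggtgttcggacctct
TM4SF1: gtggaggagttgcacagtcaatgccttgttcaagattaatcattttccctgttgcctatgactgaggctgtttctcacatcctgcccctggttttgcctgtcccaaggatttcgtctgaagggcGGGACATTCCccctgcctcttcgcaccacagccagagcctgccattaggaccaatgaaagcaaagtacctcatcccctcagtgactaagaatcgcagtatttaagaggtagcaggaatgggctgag
IGFBP6: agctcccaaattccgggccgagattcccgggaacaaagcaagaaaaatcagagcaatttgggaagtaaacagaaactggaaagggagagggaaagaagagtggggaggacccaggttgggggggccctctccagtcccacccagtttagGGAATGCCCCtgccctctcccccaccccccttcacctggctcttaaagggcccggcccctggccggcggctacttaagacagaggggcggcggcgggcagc
GSTP1: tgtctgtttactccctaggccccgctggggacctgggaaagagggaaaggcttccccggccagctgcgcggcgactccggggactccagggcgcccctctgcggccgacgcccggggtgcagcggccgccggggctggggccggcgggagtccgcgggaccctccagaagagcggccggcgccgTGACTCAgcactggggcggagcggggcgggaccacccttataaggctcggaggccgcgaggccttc

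With the transcript start at 0, the match begins at -73 in IL6, -79 in CXCL3, -68 in IL27RA, -99 in IL32, -126 in TM4SF1 and -101 in IGFBP6. SGPP2 carries NF-kappaB matches at -239 and -139 and an AP-1 match at -63. GSTP1, which has no NF-kappaB match, has its AP-1 match at -66. The counts of these 8 genes differed widely, from 323 V1 counts for TM4SF1 to 19 for IL6 and SGPP2, and from 0 V4 counts for IL6 and IL32 to 19 for TM4SF1. AKR1B1, with the highest ratio of the set when 0.2 CPM is added, had windows but no NF-kappaB or AP-1 match in them.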

How the data were processed

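RNA of 22Rv1 cells was measured in 3 samples, 1 per group. The authors deposited whole-number read counts per gene symbol, made from 150 bp single-end reads on build hg19, per the labels' protocols and the submitters' processing notes; no source used here names the aligner, counter, annotation or strand setting. A column entered only where its name gives the transfection (columns not used: 1). The 22 rows with a date in place of a symbol, which held 0.0504% of V1 and 0.0532% of V4 counts, were kept in the totals and named nowhere.

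CPM used column totals. Ratios used 0.2 CPM as added constant where stated. Folds against 0 counts used a floor of 3 counts. Intervals came from scipy 1.17.1 under Python 3.11.15. List genes with a mean CPM under 1 were set aside. TMM factors came from edgeR 4.0.16 and size factors from DESeq2 1.42.0 (R 4.3.3), as alternatives only; no expression test was run. The method was tried on simulated counts with counting error only. Changes were planted only in genes with an expected V1 count of at least 100, while only 16 members had 100 or more V1 counts. The trial therefore covers neither the rule at low counts nor the spread between cultures. Figures used matplotlib 3.10.9. RefSeq and GENCODE v29 are on GRCh38, so gene coordinates of the hg19 counts are not given.

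Members, the 16 role lists and the 9 marker lists were chosen with earlier results of these data known, and role groups of members were formed after their values were seen. Genes named were the 5 given markers, members with most V1 counts or the highest interval bounds, list members, genes at the thresholds and, since the set is small, the other members. List genes that are relatives or partners of a member were chosen after their values were seen. Of 9 motifs searched, 1 is not reported here, nor are the values of 1 member and 1 marker gene; sums over lists include the genes.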

Additional observations from a re-analysis of the deposited data

How the results depend on the processing

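The number of members followed the thresholds, as it must. A V1 CPM minimum of 1 gave 122 genes and a minimum of 5 gave 36; a ratio minimum of 3 gave 144 and of 10 gave 47; and requiring the lower interval bound to be at least 5 gave 40. With 0.5 CPM added the set had 62 genes, with nothing added and V4 counts of 0 taken as 3 it had 93, and with the rows of a symbol summed 74. TMM library sizes and DESeq2 size factors each gave 73, without MRC2. The median log2 ratio of the members was 3.52; it moved to 2.08 with 1 CPM added and to 2.67 with 0.5 CPM, and was 3.50 with TMM and 3.48 with DESeq2 size factors. All 74 members were above 0 on the log2 scale under these 4 settings. They were chosen at a ratio of at least 5 on the same counts, so this is no check of the set. With 1 CPM added, 52 of 74 single values left their counting interval, a consequence of adding more than most V4 levels.

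In the 100 bases before the start alone, the share of member windows with a match was 6.58% for NF-kappaB (2.06% over windows of genes with a V1 CPM of at least 2), 6.58% for TEAD (3.28%), 1.32% for STAT (1.86%), 14.5% for the E-box (5.50%; member interval 7.45% to 24.4%) and 39.5% for the GC box (49.8%). Counted by gene, an alternative added after the data were seen, the GC box was in 78.0% of members against 76.5% of genes with a V1 CPM of at least 2, so its lower share by window (59.2% against 68.2%) was not seen by gene. Under the mean CPM minimum of 1, all 16 role lists had a median log2 ratio above 0. The median over all kept genes was itself above 0, at 0.04, and the list of growth factor and receptor kinase genes (0.03) lay below it. These lists were chosen with earlier results known and several hold members, so nothing is read from their shared sign. With the minimum raised to 5 the TGF-beta list stood at -0.03 in place of 0.22, and 1 of 32 list values tried left its interval. No paired analysis was possible because each group has 1 sample. Depth is low: 40 members had fewer than 50 V1 counts, and a count of 0 allows up to 0.312 CPM in the V4 library.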
